A study of Mus musculus with 12 samples.

Results

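The TRAV14 family of T cell receptor alpha chains is described here in T cells of Balb/c mammary tumours. Its members were the distinct productive alpha chain (TRA) rearrangements of called cells whose V gene was named TRAV14-, TRAV14D- or TRAV14N- with a copy number, each V gene and CDR3 nucleotide sequence counted once per library. The rule found 609 members among 9383 distinct productive TRA rearrangements (6.49%). They were carried by 746 of the 8974 cells with a productive TRA, as 748 chains. A related gene, TRAV14D-3-DV8, whose name marks it as usable by the delta chain too, was left out by the rule with its 261 rearrangements in 280 cells.

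The samples were single-cell libraries of CD45+ immune cells, and the receptor table gave called contigs of 6 libraries with a number that matched a sample. CSF1R, CTX, CTX2 and Combined were labelled treated, PBS1 was labelled untreated, and PBS2 had labels in conflict, since its receptor sample was labelled treated but the expression library it was paired with was labelled untreated. The treatment protocol, entered for every sample, lasted 3 weeks and combined cyclophosphamide, which alkylates DNA and kills dividing cells, with pexidartinib, which blocks the CSF1 receptor of macrophages. The library names come from the table, the labels do not define them, and they do not say which mouse or how many mice gave each library, nor an age, so the p-values given here reflect only how far libraries spread. CSF1R was tied through a number that begins the titles of 2 treated expression libraries, so its tie holds for the group alone. Called cells ran from 245 in PBS1 to 7629 in Combined, and receptor UMIs (unique molecular identifiers, which count captured molecules) from 6807 in PBS1 to 121305 in Combined.

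An alpha chain gene is built in the thymus by joining 1 of many V genes to 1 of many J genes, and the bases trimmed and added at that joint make up the CDR3, the loop that lies over the bound peptide. The alpha locus can be rearranged again on the same chromosome, each round using a V gene further upstream and a J gene further downstream, until a receptor passes selection. TRAV14 genes lie in an array of repeated V gene blocks, and in the gene names D and N mark copies that belong to duplicated blocks. The family is well known from the OT-I and OT-II transgenic receptors against ovalbumin, both of which carry a TRAV14 alpha chain.

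A paired receptor with the same genes and nearly the same residues, written by different nucleotide sequences, was found in several libraries. Its alpha chain was TRAV14N-1 joined to TRAJ58 with the CDR3 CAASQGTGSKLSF or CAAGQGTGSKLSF, and its beta chain was TRBV13-1 joined to TRBJ2-7 with a CDR3 of 13 residues that began with CASS, had G at its middle position and ended with YEQYF. It was seen as 7 nucleotide-distinct alpha-beta pairs in 26 cells of 4 libraries, CSF1R, CTX, PBS2 and PBS1. This receptor was singled out after the values had been seen, so its counts are a description. The 4 alpha CDR3 sequences below differ only in the codon of residue 4, which is in capitals, and they are shown because this codon is where the alpha chains of different libraries differ.
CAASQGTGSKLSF in CTX, CTX2 and PBS2: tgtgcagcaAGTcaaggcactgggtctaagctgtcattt
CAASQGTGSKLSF in CSF1R: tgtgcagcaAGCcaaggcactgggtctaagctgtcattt
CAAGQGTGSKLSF in PBS2: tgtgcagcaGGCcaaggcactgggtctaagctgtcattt
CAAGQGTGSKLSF in PBS1: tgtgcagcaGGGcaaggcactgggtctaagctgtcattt

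The 7 beta CDR3 sequences of the receptor follow, with the codons of residues 5 to 8 in capitals, where they differ. The first 13 and the last 15 bases are the same in each.
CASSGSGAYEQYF in CSF1R: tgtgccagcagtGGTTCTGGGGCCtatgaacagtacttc
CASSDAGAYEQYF in CTX, main sequence: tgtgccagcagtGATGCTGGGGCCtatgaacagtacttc
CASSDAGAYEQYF in CTX, second sequence: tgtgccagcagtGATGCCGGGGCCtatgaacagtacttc
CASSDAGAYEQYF in CTX, last sequence: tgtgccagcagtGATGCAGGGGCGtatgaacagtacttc
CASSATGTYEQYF in PBS2: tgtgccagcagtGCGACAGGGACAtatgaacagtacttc
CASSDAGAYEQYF in PBS2: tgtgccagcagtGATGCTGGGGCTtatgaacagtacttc
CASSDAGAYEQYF in PBS1: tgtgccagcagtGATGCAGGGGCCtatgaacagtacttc

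The beta chain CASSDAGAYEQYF was thus written by 5 nucleotide sequences in 3 libraries, CTX, PBS2 and PBS1, each pair of which differed at 1 or 2 bases. All 19 cells that carried this beta chain and any alpha chain carried a TRAV14 alpha chain. In CTX the receptor was present with both chains in 14 cells, 12 with the main beta sequence and 1 cell with each of the others. The second CTX sequence differed from the main one at 1 base and rested on 20 UMIs, and the last differed at 2 bases and rested on 6 UMIs. In PBS2 it was present in 6 cells with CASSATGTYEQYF and in 1 cell with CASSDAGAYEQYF, in PBS1 in 4 cells, and in CSF1R in 1 cell whose alpha chain rested on 2 UMIs. No cell barcode of the family was shared between libraries, whereas 50 barcodes of all cells were shared over the library pairs, at most 14 by 1 pair. All 7 pairs in 4 libraries were still found with alpha contigs of 2 or more UMIs, with high-confidence contigs alone and without possible doublets. Without CTX, 4 pairs in 3 libraries were left.

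Combined held none of these pairs. Among all cells with an alpha chain, 16 distinct beta chains were TRBV13-1 with TRBJ2-7 and fitted the CDR3 pattern given above. Outside Combined, 7 of 8 of them were paired with the TRAV14N-1 and TRAJ58 alpha chain. In Combined, which held 472 of the 609 members, 0 of 8 were. The pattern was written to fit the beta chains of the 7 pairs, none of them in Combined. The contrast thus follows in part from that choice, and it was not tested. CSF1R, the next largest library with 49 members, held 1 of the 7 pairs.

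A second receptor with identical residues on both chains was found in Combined and PBS1. Its alpha chain was TRAV14N-1 joined to TRAJ37, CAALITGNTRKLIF, and its beta chain was TRBV13-3 with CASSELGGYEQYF. It was present in 1 cell of Combined and in 10 cells of PBS1 with both chains. Both alpha sequences had 4 bases in the CDR3 that neither the V gene's shared start nor the J gene's shared end accounted for, and these differed between the libraries. The beta chain was written by 3 nucleotide sequences, 2 of them in PBS1. In the sequences below the capitals mark the codons of residues 3 to 5 in the alpha chain and of residues 5 to 8 in the beta chain.
Alpha in Combined: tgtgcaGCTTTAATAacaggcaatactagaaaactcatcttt
Alpha in PBS1: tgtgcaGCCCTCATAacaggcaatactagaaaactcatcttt
Beta in Combined: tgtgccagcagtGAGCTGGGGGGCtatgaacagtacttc
Beta in PBS1, 9 cells: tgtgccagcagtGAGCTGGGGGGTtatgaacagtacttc
Beta in PBS1, 1 cell: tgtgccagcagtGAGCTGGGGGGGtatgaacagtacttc

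The family took between 4.83% and 6.70% of the alpha repertoire in each library. Members were 5.72% of distinct TRA rearrangements in CSF1R (49 of 857), 5.73% in CTX (24 of 419), 33 of 518 or 6.37% in CTX2, 472 of 7040 or 6.70% in Combined, 24 of 404 or 5.94% in PBS2 and 4.83% in PBS1 (7 of 145). The exact Clopper-Pearson 95% interval of PBS1, 1.96% to 9.69%, covered the value of every other library, and intervals here cover counting error only. The mean was 6.13% ± 0.490 in the 4 treated libraries (SD, n = 4) and the value was 4.83% in PBS1. The difference of 1.30 percentage points had a two-sided exact permutation p of 0.2, the smallest that 4 libraries against 1 allow, so the design could not pass 0.05. The difference was -0.19 with TRAV14D-3-DV8 counted as a member and -0.97 with chains in cells in place of rearrangements.

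Counted by cells the share differed more between libraries. Cells with a family chain were 6.94% of TRA cells in CSF1R, 16.3% in CTX, 7.85% in CTX2, 7.86% in Combined, 7.92% in PBS2 and 10.6% in PBS1. In CTX, 1 rearrangement held 43 of the 82 family cells (52.4%).

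With each rearrangement taken at the median UMIs of its chains, the family median was 3 UMIs in CSF1R and Combined and 3.5 in PBS2. It was 5 in CTX and CTX2 and 7 in PBS1. This median was higher by 0.29 UMIs for the family than for other TRA on average over libraries. The p-value from exact permutation of signs, two-sided, was 0.625 (n = 6 libraries, called the exact sign-flip p hereafter). Over chains in cells the difference was 0.083 UMIs. A single UMI supported 109 of the 748 family chains (14.6%), and 42 were not marked high confidence. The cells had the receptor contigs of conventional alpha-beta T cells: 697 of the 748 chains (93.2%) had a productive beta chain in the same cell, 0 family cells carried the NKT alpha chain TRAV11 with TRAJ18 or the MAIT alpha chain TRAV1 with TRAJ33, and 1 carried an immunoglobulin, gamma or delta contig.

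Of the 8 TRAV14 copies named in the RefSeq gene table, 4 made nearly all members. TRAV14N-1, at chr14:53166677-53167178 of GRCm38.p6, was the most used, with 232 rearrangements and a mean of 45.7% ± 13.7 of the family (SD, n = 6 libraries). TRAV14D-2, at chr14:52948668-52949169, had 180 rearrangements and a mean of 26.7% ± 6.2. TRAV14N-3, at chr14:53370077-53370575, had 148 and a mean of 20.2% ± 4.76. TRAV14-1, at chr14:53554057-53554558, had 47 and a mean of 6.80% ± 6.71. These positions come from the C57BL/6J reference, a strain other than Balb/c, so the presence and position of each copy in Balb/c were not measured.

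**Figure D1:**
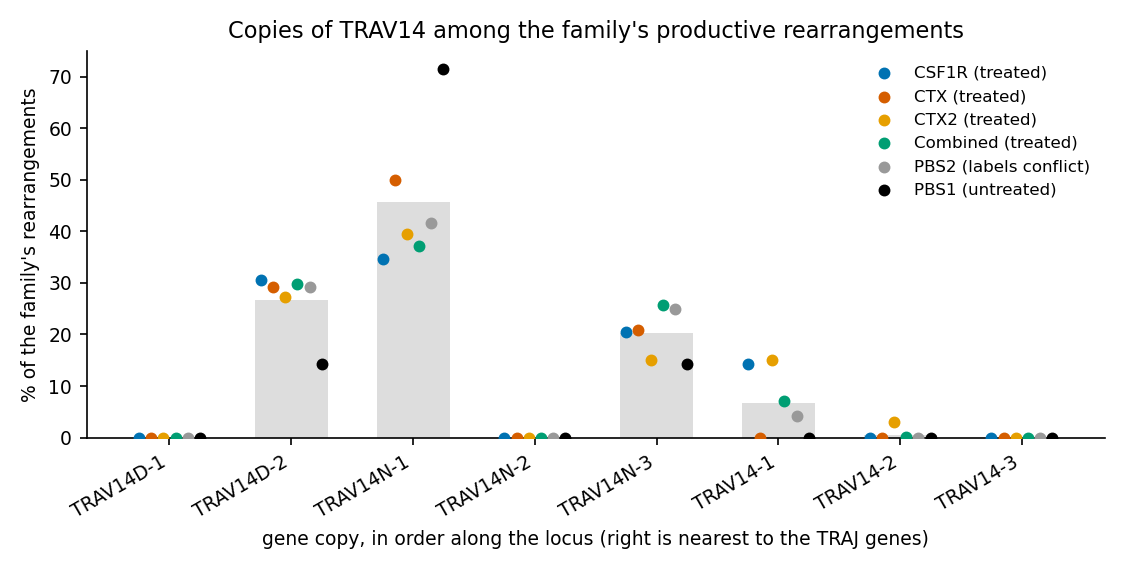
Share of each TRAV14 copy (vertical axis, % of the family's distinct productive rearrangements) by library, with copies in order along chromosome 14. Points are the 6 libraries and grey bars their means; TRAV14N-1 leads in every library, from 34.7% in CSF1R to 71.4% in PBS1.

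TRAV14N-1 led in all 6 libraries, with 34.7% of members in CSF1R, 50% in CTX, 39.4% in CTX2, 37.1% in Combined, 41.7% in PBS2 and 71.4% in PBS1, where it was 5 of 7. TRAV14D-2 stood between 27.3% and 30.6% in every library but PBS1, where it was 1 of 7. TRAV14-1 reached 14.3% in CSF1R and 15.2% in CTX2 and was at 0 in CTX and PBS1. With 24 and 7 members in those libraries, a count of 0 allows a share of up to 12.5% in CTX and 42.9% in PBS1.

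The other copies were rare. TRAV14-2 had 2 productive rearrangements, 3 nonproductive ones and 2 contigs with no productive call. TRAV14D-1 had 0 productive and 2 nonproductive rearrangements and 1 such contig, TRAV14N-2 had 0, 7 and 11, and TRAV14-3 had none of them. In total 29 of 510 nonproductive TRA rearrangements (5.69%) used the family. The odds of being productive were not distinguishable from those of other TRA, with a log2 odds ratio of -0.25 ± 0.98 (SD, n = 6), positive in 2 and negative in 4 libraries, and an exact sign-flip p of 0.5625 (Benjamini-Hochberg adjusted over 17 TRAV families, 0.797). Of the 17 families, 17.6% passed an unadjusted p of 0.05 in this measure. Counted within each library, 14 of 593 distinct CDR3 nucleotide sequences stood under more than 1 copy name, all 14 in Combined and in different cells, none of which shared a beta chain. Counted over the 6 libraries together, 18 of 583 did. How the contig caller chose between similar copies was not tested.

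The family joined TRAJ genes along the whole locus. All 43 TRAJ genes seen in the 6 libraries were used by at least 1 member. Counting TRAJ genes from the V side, so that TRAJ58 is 1, the middle member stood at 16 and the 10th and 90th percentiles at 3 and 35. The mean position was 16.5 ± 2.22 for the family and 18.1 ± 0.909 for other TRA (SD, n = 6 libraries). The difference of -1.65 was positive in 3 libraries and negative in 3, with an exact sign-flip p of 0.25 (adjusted over 17 families, 0.425), while 41.2% of the families passed an unadjusted p of 0.05 in this measure. Without PBS1, where it was -7.52 with 7 members, the difference was -0.48, and counted by cells it was -4.34 (exact p = 0.0625).

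TRAJ58, the TRAJ gene nearest to the V genes among those seen, had the highest mean share of the family. The members that joined it were 4 of 49 or 8.16% in CSF1R, 2 of 24 or 8.33% in CTX, 4 of 33 or 12.1% in CTX2, 12 of 472 or 2.54% in Combined, 3 of 24 or 12.5% in PBS2 and 1 of 7 or 14.3% in PBS1. Among other TRA it was joined by 1.73% in CSF1R, 1.52% in CTX, 1.86% in CTX2, 2.27% in Combined, 3.42% in PBS2 and 0.725% in PBS1. The family was higher in 6 of 6 libraries, by 0.27 points in Combined and by at least 6.43 points in each of the others. In CSF1R, CTX, PBS2 and PBS1 these members include alpha chains of the recurrent receptor, in PBS1 the only 1. The comparison is thus not independent of that receptor, and the share without it was not measured. The mean difference of 7.74 percentage points (SD 4.48, n = 6) had an exact sign-flip p of 0.03125, the smallest that 6 libraries allow, which became 0.198 after adjustment over the 38 TRAJ genes seen in all libraries, so it did not pass the threshold.

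Of those 38 TRAJ genes, 15.8% passed an unadjusted p of 0.05, namely TRAJ58, higher in the family, and TRAJ49, TRAJ30, TRAJ56, TRAJ28 and TRAJ11, lower in it, and 0 passed after adjustment. Of these, TRAJ28 had 3 members and TRAJ11 had 1, all in Combined, so in 5 of 6 libraries their lower share was a count of 0. The mean difference of TRAJ58 was 8.97 points in the 4 libraries whose numbers have no letter prefix and 5.27 points in CTX2 and Combined, whose numbers begin with JR. The next TRAJ genes by mean share were TRAJ31 with 7.17%, TRAJ52 with 6.17%, TRAJ22 with 5.44% and TRAJ42 with 5.17% of the family, and their exact p-values lay between 0.28125 and 0.9375. The mean of TRAJ31 rests on PBS1, where it was 2 of 7 members.

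**Figure D2:**
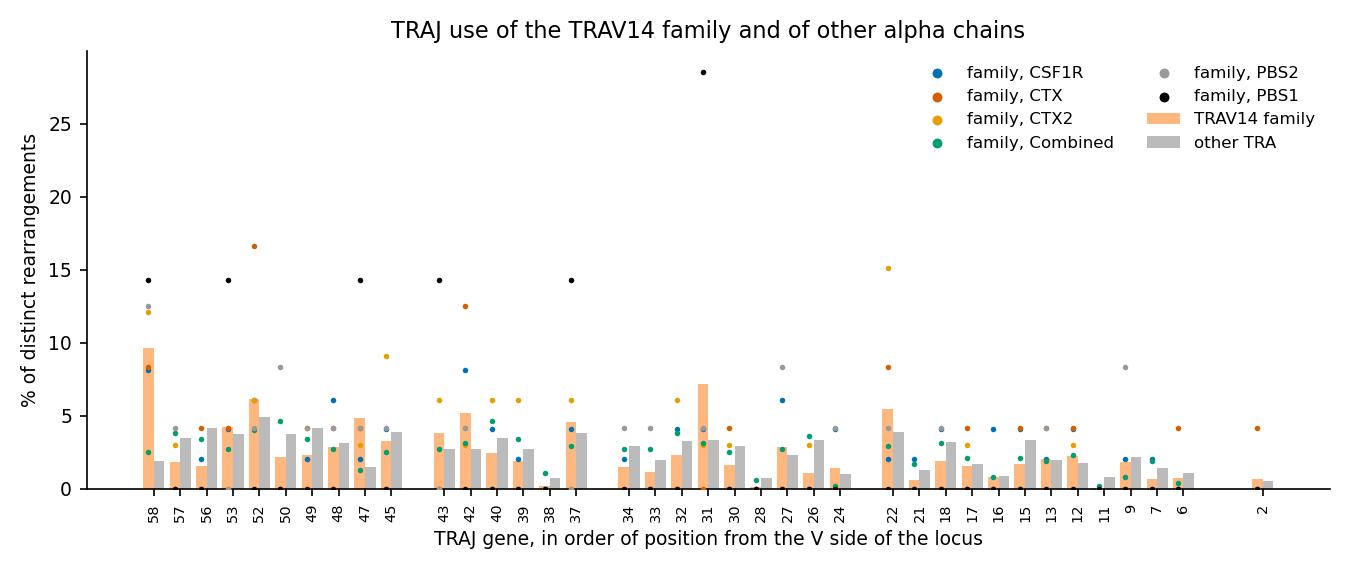
Share of each TRAJ gene (vertical axis, % of distinct rearrangements) among TRAV14 members and other TRA, for the 38 TRAJ genes seen in all 6 libraries, in order from the V side of the locus. Bars are means over libraries and points the family's value in each library; TRAJ58, at the left, has the tallest family bar at 9.66%, against 1.92% in other TRA.

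TRAV14N-3 and TRAV14N-1 stood apart in the TRAJ genes they joined, though not after adjustment. TRAV14N-3 lies closer to the TRAJ genes than TRAV14N-1, and it was joined to TRAJ genes further downstream in 6 of 6 libraries. Its mean TRAJ position was 18.5 in CSF1R, 28.4 in CTX, 22 in CTX2, 22.9 in Combined, 19.2 in PBS2 and 22 in PBS1. That of TRAV14N-1 was 15.7 in CSF1R, 17.4 in CTX, 14.5 in CTX2, 15.6 in Combined, 13.3 in PBS2 and 10.6 in PBS1. The difference of 7.65 positions (SD 3.23, n = 6) had an exact sign-flip p of 0.03125, adjusted over the 3 copies compared to 0.0938. It was 7.76 in the 4 libraries whose numbers have no letter prefix and 7.43 in the 2 JR libraries.

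TRAV14D-2, upstream of TRAV14N-1, stood 2.16 positions further downstream (SD 4.23, higher in 5 of 6 libraries, exact p = 0.21875). TRAV14-1, the closest of the 4 to the TRAJ genes, stood 0.69 positions nearer to the V side (-0.69, SD 4.37) over the 4 libraries that held it, with an exact p of 0.875 where 0.125 is the smallest possible. The comparison of copies was chosen after the values had been seen. In PBS1, TRAV14N-3 and TRAV14D-2 had 1 member each.

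**Figure D3:**
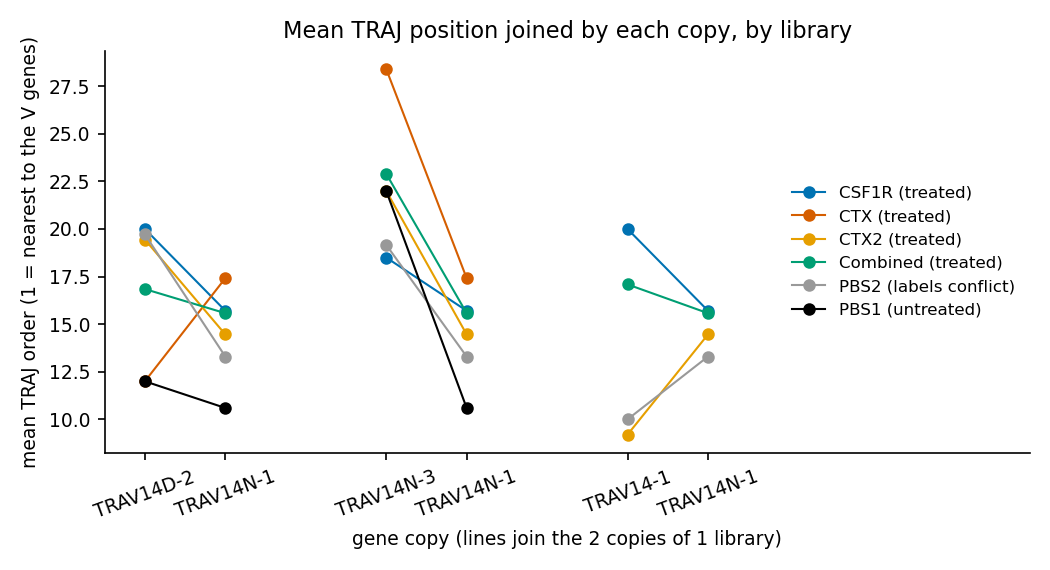
Mean TRAJ position (vertical axis, order from the V side, 1 = TRAJ58) of TRAV14D-2, TRAV14N-3 and TRAV14-1, each left of TRAV14N-1 in the same library. Lines join the copies of 1 library; every line from TRAV14N-3 to TRAV14N-1 slopes down, by 2.79 to 11.4 positions.

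The CDR3s of the family began alike. Of the members, 585 (96.1%) began with CAA and 345 (56.7%) with CAAS, and the CDR3 had between 4 and 19 residues with a median of 13. These lengths are as called. The only CDR3 of 19 residues, in CSF1R, rested on 1 UMI, and the shortest was joined to TRAJ44, described below. The most frequent residue at position 4 after serine was arginine, in 66 members (10.8%). The shared start found for each copy is given here, since it encodes this CAAS. It was extended base by base among the sequences that still matched, so its full length need not be shared by most members.
TRAV14-1: tgtgcagcaagtga
TRAV14D-2: tgtgcagcaagtg
TRAV14N-1: tgtgcagcaagtg
TRAV14N-3: tgtgcagcaagtg

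The mean CDR3 was shorter than that of other TRA in 6 of 6 libraries. It was 13.47 residues in the family and 13.55 in other TRA in CSF1R, 13.7 and 13.8 in CTX, 13.4 and 13.7 in CTX2, 13.3 and 13.6 in Combined, 13 and 13.7 in PBS2, and 12.7 and 13.8 in PBS1. The mean difference of -0.44 residues (SD 0.394, n = 6) had an exact sign-flip p of 0.03125, adjusted to 0.0885 over 17 TRAV families, so it did not pass after adjustment. In this measure 35.3% of the families passed an unadjusted p of 0.05, 4 of them shorter and 2 longer than the rest, and 0 passed after adjustment. The difference was -0.49 in the libraries without a letter prefix and -0.33 in the JR libraries. Some members joined to TRAJ44 had very short CDR3s, such as CAGT with 4 residues in Combined and CAASGT with 6 in CTX2. Over all libraries together, TRAJ44 was joined by 2.63% of members and 1.42% of other TRA. As a mean over libraries these shares were 1.03% and 0.977%. In CSF1R, CTX, PBS2 and PBS1, 0 members joined TRAJ44, and the family mean was lower there too. The length difference without rearrangements joined to TRAJ44 was not measured.

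The net charge of the CDR3, counted from its lysine, arginine, aspartate and glutamate residues, was 0.815 ± 0.138 in the family and 0.667 ± 0.0572 in other TRA (SD, n = 6 libraries). The difference of 0.15 had an exact sign-flip p of 0.125 (adjusted 0.152) where 35.3% of families passed an unadjusted p of 0.05. Counted by cells the difference was 0.37 (exact p = 0.03125, adjusted 0.0759). The charge of a member ran from -2 to 4.

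Many members had a CDR3 in which the V gene's shared start and the J gene's shared end left no base unmatched. This was so for 105 of 606 members that could be measured (17.3%), and the median was 2 unmatched bases. The share was 17.3% ± 10.3 in the family and 19.2% ± 1.89 in other TRA (mean over libraries ± SD, n = 6; exact sign-flip p = 0.65625). Members whose TRAJ gene and CDR3 residues recurred in another library had no unmatched base in 24 of 59 rearrangements (40.7%), and the remaining members in 81 of 547 (14.8%). The same split of other TRA is not given here. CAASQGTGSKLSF in CTX, CTX2 and PBS2 was among the recurring members with no unmatched base. Its end is covered by the shared end found for TRAJ58 in the same way, shown here for comparison with the alpha chains above.
TRAJ58: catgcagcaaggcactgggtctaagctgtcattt

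In total 23 of the 546 distinct combinations of TRAJ gene and CDR3 residues (4.21%) were found in at least 2 libraries, 18 of them with Combined as 1 of the libraries. The same share for other TRA is not given here, so 4.21% cannot be read as high or low. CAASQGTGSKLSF was found in the most, CSF1R, CTX, CTX2 and PBS2, with 58 cells. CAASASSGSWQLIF with TRAJ22 was found in CTX, Combined and PBS2 with 6 cells, under the names TRAV14D-2, TRAV14N-1 and TRAV14N-3. The other 21 were found in 2 libraries each. The nucleotide sequence was the same in at least 2 libraries for 8 of the 23 and differed for the rest.

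The beta chains paired with the family came from many TRBV genes. Over 581 distinct alpha-beta pairs, the 5 with the highest mean share over libraries were TRBV13-1, TRBV5, TRBV1, TRBV13-3 and TRBV13-2. TRBV13-1 was in 14.7% ± 5.01 of pairs of the family and 10.5% ± 2.32 of pairs of other TRA (SD, n = 6), higher in 5 of 6 libraries (exact sign-flip p = 0.09375, adjusted 0.25). In Combined it was lower, with 8.87% in the family and 11.1% in other TRA. TRBV5 was in 11.2% and 8.79%, TRBV1 in 10.3% and 6.68%, and TRBV13-3 in 9.96% and 7.78% of pairs of the family and of other TRA, with exact p-values from 0.28125 to 0.8125. Single libraries moved these means: that of TRBV5, 2.43 points higher in the family, was 0.63 without CTX, 1.31 without CTX2 and 4.44 without PBS1. The difference of TRBV1, 3.65 points, was 1.62 without PBS2 and 5.60 without PBS1, and that of TRBV13-1, 4.20 points, was 2.65 without PBS2. That of TRBV13-3 was -2.02 without PBS1. In PBS1 the 2 of 7 family pairs with TRBV13-3 were 1 alpha chain, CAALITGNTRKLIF, with 2 beta sequences. In CTX the 3 family pairs with TRBV13-1 were 1 alpha chain of the recurrent receptor with 3 beta sequences. Over all pairs together, most of them from Combined, the order was another, with TRBV13-2 in 70 pairs, TRBV5 in 67, TRBV19 in 61 and TRBV13-1 in 60.

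TRBV13-2, the most used beta gene of other TRA, was lower in the family in 6 of 6 libraries. It was in 8.70% of family pairs in CSF1R, 8.33% in CTX, 12.5% in CTX2, 12.6% in Combined, 14.3% in PBS2 and 0 of 7 pairs in PBS1. It was in 13.4% of pairs of other TRA in CSF1R, 17.9% in CTX, 18.0% in CTX2, 13.6% in Combined, 14.4% in PBS2 and 15.3% in PBS1. In PBS2 the difference was -0.079 points. The mean difference of -6.01 points (SD 5.67, n = 6) had an exact sign-flip p of 0.03125, adjusted to 0.125 over 16 TRBV genes. In PBS1 a count of 0 among 7 pairs allows a share of up to 42.9%. TRBV16, TRBV17 and TRBV30 were also lower in 6 of 6 libraries, but they made only 9 family pairs together, with TRBV16 and TRBV30 at 0 in 5 of the 6 libraries and TRBV17 in 4, so their sign rests mostly on counts of 0. With them 25% of the 16 genes passed an unadjusted p of 0.05, all of them lower, and 0 passed after adjustment.

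**Figure D4:**
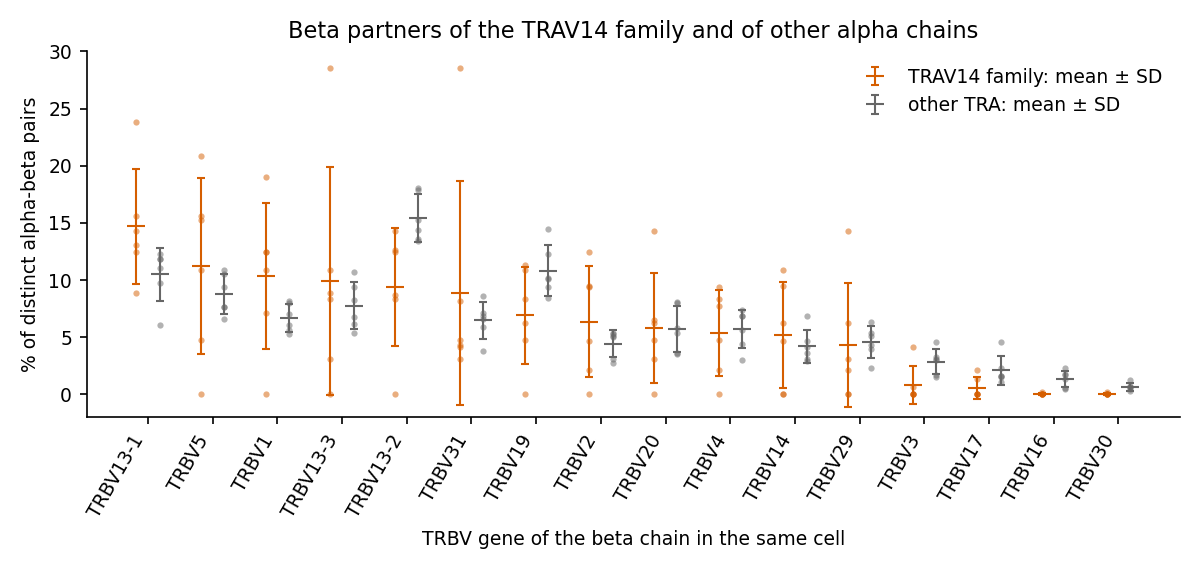
Share of each TRBV gene (vertical axis, % of distinct alpha-beta pairs) among pairs of the TRAV14 family, left, and of other TRA, right, for the 16 TRBV genes seen in all 6 libraries. Points are libraries and bars the mean ± SD; the points of the family spread more widely, with 7 to 451 pairs per library, and the family mean of TRBV13-2, 9.41%, lies below that of other TRA, 15.4%.

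TRBV13-1 was in 10 of 28 pairs of family chains joined to TRAJ58 (35.7%), in 50 of 553 pairs of other family chains (9.04%) and in 24 of 183 pairs of other V genes joined to TRAJ58 (13.1%). The 10 pairs include the 7 of the recurrent receptor described above, so these shares are not independent of it and no test is given. Without those 7, TRBV13-1 was in 3 of 21 pairs joined to TRAJ58 (14.3%). By groups of genes, the TRBV13 genes together took 34.1% ± 5.31 of family pairs and 33.7% ± 5.44 of other pairs, and the TRBJ2 genes 62.8% ± 10.6 and 64.1% ± 3.21 (SD, n = 6 each). Of 12 TRBJ genes 1 passed an unadjusted p of 0.05 (8.33%) and 0 passed after adjustment. It was TRBJ2-4, in 3.08% of family pairs and 9.28% of other pairs and lower in 6 of 6 libraries (exact sign-flip p = 0.03125, adjusted 0.375), with 0 family pairs in 3 of them. TRBJ2-7, the J gene of the recurrent receptor, was in 23.3% and 15.8%, higher in 5 of 6 libraries (exact p = 0.09375, adjusted 0.45). In PBS1 its 3 of 7 pairs were those of the recurrent receptor and of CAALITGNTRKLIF, so this comparison is not independent of those receptors.

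Most members were seen in 1 cell, and the few that were not held many cells. Of the 609 members, 590 were in 1 cell, 9 in 2 cells and 10 in 3 or more, and these 10 held 138 cells. TRAV14N-1 was the copy of 7 of the 10, and TRAJ58 was joined by 5 of them. Of all 609 members, 38.1% used TRAV14N-1 and 4.27% joined TRAJ58. However, 472 of the 609 were from Combined, which held none of the 10. TRAJ58 was joined by 2.54% of members in Combined and by 8.16% to 14.3% in the other libraries. TRAV14N-1 was used by 37.1% in Combined and by 34.7% to 71.4% in the others. The share of members found in 2 or more cells was 2.04% in CSF1R, 12.5% in CTX, 18.2% in CTX2, 1.06% in Combined, 8.33% in PBS2 and 28.6% (2 of 7) in PBS1. Among other TRA it was 1.49% in CSF1R, 10.9% in CTX, 12.2% in CTX2, 2.33% in Combined, 4.21% in PBS2 and 7.97% in PBS1. The family was higher in 5 of 6 libraries. The mean difference of 5.27 points (SD 7.94, n = 6) had an exact sign-flip p of 0.09375 and an adjusted p of 0.531, with 11.8% of families past an unadjusted p of 0.05. Without PBS1 it was 2.21 points.

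**Figure D5:**
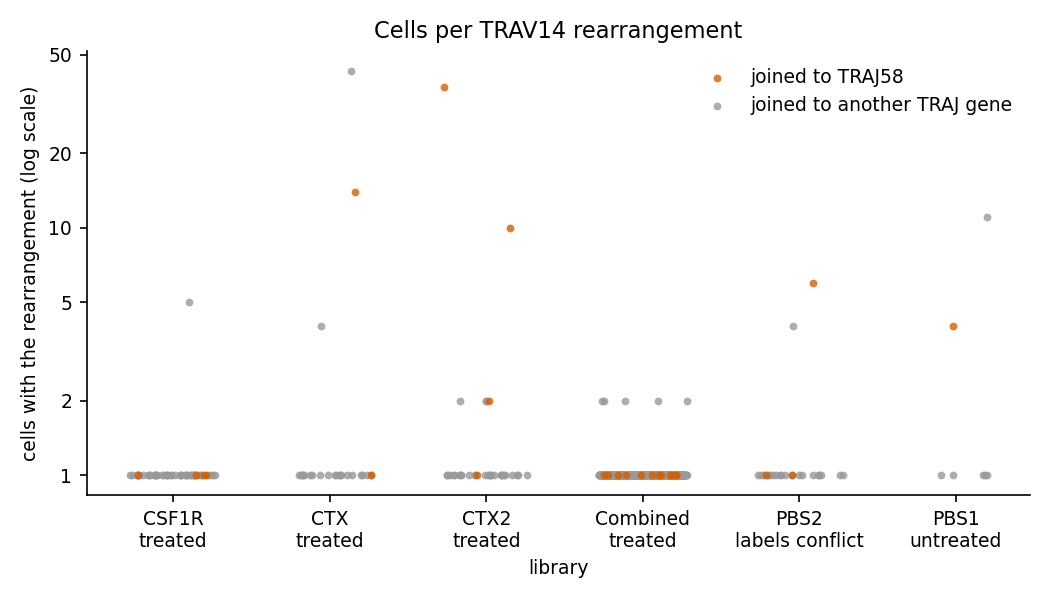
Number of cells carrying each TRAV14 rearrangement (vertical axis, log scale) in the 6 libraries, each point 1 rearrangement, coloured by whether it joins TRAJ58. Nearly all points lie at 1 cell; the largest are 43 cells in CTX and 37 cells, joined to TRAJ58, in CTX2.

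The largest member was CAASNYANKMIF, TRAV14N-1 joined to TRAJ47, in 43 cells of CTX. Of the 37 of these cells with a beta chain, 36 carried TRBV2 with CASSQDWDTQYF, all with the same nucleotide sequence. All 36 cells with that beta chain and any alpha chain carried this alpha chain. Its CDR3 is shown with its 1 unmatched base in capitals.
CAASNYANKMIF: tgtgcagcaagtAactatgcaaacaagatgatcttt

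The next largest was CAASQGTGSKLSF in 37 cells of CTX2, and its beta chain was not that of the recurrent receptor. The 32 cells with a beta chain all carried TRBV13-3 with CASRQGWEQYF. Of the 37 cells, 32 also carried a second alpha chain, TRAV3-4 joined to TRAJ56, so which alpha chain pairs with the beta chain in these cells was not measured. A second alpha chain was also common in 3 other members. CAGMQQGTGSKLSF, TRAV14-1 joined to TRAJ58 in 10 cells of CTX2 with a TRBV5 beta chain, came with TRAV3-4 joined to TRAJ57 in 9 cells. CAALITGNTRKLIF in 11 cells of PBS1 came with TRAV6-6 joined to TRAJ33 in 9. The recurrent receptor in 14 cells of CTX came with TRAV21-DV12 joined to TRAJ57 in 5, while it came with no second alpha chain in the 6 cells of PBS2 and the 4 cells of PBS1.

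The other members in 3 or more cells were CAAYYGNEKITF, TRAV14N-3 joined to TRAJ48, in 5 cells of CSF1R, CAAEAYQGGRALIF, TRAV14N-1 joined to TRAJ15, in 4 cells of CTX, and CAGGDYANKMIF, TRAV14N-3 joined to TRAJ47, in 4 cells of PBS2. Each paired with 1 main beta chain. It was TRBV1 with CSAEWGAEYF in 4 of 5 cells, TRBV4 with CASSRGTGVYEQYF in 3 of 3 and TRBV1 with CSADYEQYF in 4 of 4. No rearrangement of Combined was found in more than 2 cells, although that library held most of the members.

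Chains with a second productive alpha chain in the same cell were counted as a share of all chains. For family chains the share was 24.5% in CSF1R, 19.5% in CTX, 65.9% in CTX2, 29.6% in Combined, 12.5% in PBS2 and 50% in PBS1. For other TRA chains it was 26.4% in CSF1R, 35.8% in CTX, 22.8% in CTX2, 31.2% in Combined, 36.2% in PBS2 and 27.4% in PBS1. A cell with several chains of other TRA counted once for each, so these are not shares of cells. The family was higher in CTX2 and PBS1 and lower in the other 4 libraries. Each cell of a large member counts here. Of the 82 family chains of CTX2, 33 of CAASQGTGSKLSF and 9 of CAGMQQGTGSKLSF had a second alpha chain. Of the 20 of PBS1, 9 of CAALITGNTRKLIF had one, so both higher shares rest mostly on these members. The mean difference of 3.70 points (SD 25.0, n = 6) had an exact sign-flip p of 0.78125, and without CTX2 it was -4.18 points.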

How the data were processed

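Per the labels' protocols, the receptor sequences were enriched from single-cell libraries made with a 5′ droplet kit. The submitters' processing notes name Cell Ranger 3.0.2, mm10 and GRCm38, and the 2 builds are the same mouse assembly. The deposited table gives a read count and a UMI count for each contig, whole numbers that are not normalized, with its cell call, genes, CDR3 and productive status, and its contig length was not used. Of its 11 library names, 6 were tied to a sample by the library number, and the other 5 were left aside, as were the expression matrices.

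Productive contigs of called cells were used with no further minimum, and doublets were kept. Differences between the family and other TRA were taken within each library and tested by an exact permutation of signs over 6 libraries (two-sided), whose smallest p is 0.03125, with Benjamini-Hochberg adjustment over 17 TRAV families, 38 TRAJ or 16 TRBV genes and a threshold of 0.05. For treated against untreated libraries an exact permutation test of group labels was used, two-sided and without PBS2. Odds ratios had 0.5 added to each count. For the shares of copies and of TRBV13-2, a count of 0 is given with the share that 3 counts would make. The unmatched bases of a CDR3 were those matched neither by the start shared by a V gene's rearrangements nor by the end shared by a J gene's. Genes with at least 20 distinct sequences were used. Each start or end was extended while at least 10 sequences still matched and at least 50% of these kept the same base. A cell's beta chain was its TRB contig with the most UMIs.

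The members, lists and tests were chosen with earlier results of these data known. Named were all copies, the 5 TRAJ and 5 TRBV genes with the largest mean share, rearrangements in 3 or more cells, and receptors recurring in 2 or more libraries. The unmatched bases, the TRAJ58 test, the copy comparison and the paired receptors were added after the values were seen. Gene positions and copy names came from a RefSeq table of assembly GRCm38.p6, and the CDR3 sequences from the deposited table. Alternatives were a minimum of 2 UMIs, high-confidence contigs, cells in place of rearrangements, merged copies, leaving out cells with 2 or more TRB or 3 or more TRA contigs, leaving out each library, counting TRAV14D-3-DV8 as a member, a minimum of 3 cells for an expanded chain, and PBS2 in either group. Python 3.11.15, numpy 2.4.6, pandas 2.3.3, scipy 1.17.1 and matplotlib 3.10.9 were used, and the functions were tested on simulated data.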

Additional observations from a re-analysis of the deposited data

Results flagged for a closer look

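Screening 19 values over the 4 treated libraries for a single library far from the other 3 gave 2, where chance gives about 1 in 20. Family cells were 16.3% of TRA cells in CTX, and between 6.94% and 7.86% in the other treated libraries. The difference in mean TRAJ position, family minus other TRA, was -2.38 in CTX2, and between 0.34 and 0.49 in the other treated libraries.

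Of 16 differences between the family and other TRA, 3 had the same sign in all 4 treated libraries and the opposite sign in PBS1. The difference between these groups was not tested, and PBS1 held 7 members. The TRAJ31 share, family minus other TRA, lay between -2.28 and -0.68 points in the treated libraries and was 27.8 points in PBS1. TRAJ31 was among the named genes for its large mean share, and that mean rests on PBS1, where it was 2 of 7 members. Its contrast with PBS1 thus follows in part from that choice. The TRAJ42 share lay between 0.24 and 8.96 points in the treated libraries and was -2.90 points in PBS1, where 0 of 7 members joined it. The TRBV5 share of pairs lay between 0.31 and 11.4 points in the treated libraries and was -7.63 points in PBS1, which held 0 of 7 family pairs with it.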

How the results depend on the processing

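The family share, 5.88% on average over libraries, was 8.21% counted by chains in cells and 8.63% with TRAV14D-3-DV8 as a member. The difference between treated libraries and PBS1, 1.30 points, was -0.97 and -0.19 under the same settings. The log2 odds of being productive turned to 0.28 with alpha contigs of 2 or more UMIs. Leaving out 1 library at a time, the second alpha chain difference ran from -4.18 points without CTX2 to 9.19, and was -0.085 without PBS1, the TRBV13-3 difference ran from -2.02 without PBS1 to 4.50, and the pairs of the recurrent receptor ran from 4 without CTX to 7. The TRAJ58 difference ran from 6.57 to 9.23 points and the CDR3 length difference from -0.51 to -0.30 residues, the same sign each time. With 5 libraries the smallest exact p is 0.0625, so no such test can pass 0.05. TRAJ58 reached 20.7 points by cells. Its adjusted exact sign-flip p ran from 0.170, by cells, to 0.365 over the alternatives that kept all 6 libraries. TRAV14N-3 against TRAV14N-1 was 10.3 positions by cells, with an exact p of 0.0625. No paired analysis was possible because the replicate numbers name libraries of different kinds and only 1 library was untreated. Small libraries limit the depth: PBS1 held 7 members and CTX and PBS2 24 each, and 92 members rested on 1 UMI.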
